A study of Mus musculus with 7 samples.

Results

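The genes described here are 10 immunoglobulin constant region and plasma cell genes of the mouse, *Ighm*, *Ighd*, *Ighg1*, *Ighg2b*, *Ighg2c*, *Ighg3*, *Igha*, *Igkc*, *Jchain* and *Mzb1*. They were chosen by name, with earlier results of these data known, and all 10 were found among the 55401 genes of the deposited table of raw read counts. RNA was sequenced from lung tissue (right lobes) of male C57BL/6 mice, 6 to 8 weeks old and weighing 20 to 25 g, which had all received bleomycin, an antitumour drug that damages lung tissue and leads to fibrosis. The mice were divided on day 7, and 4 of them formed the bleomycin group (BLM). The other 3 were exposed to hyperbaric oxygen, oxygen breathed under pressure, at 2.5 ATA for 90 min per day over 14 days (BLM+HBO), and all lungs were collected on day 21. Whether the BLM mice also spent time in the chamber, without pressurised oxygen, is stated differently in the sample records (yes) and the supplementary methods (untreated), and remains unsettled. Mice that lost too little weight after bleomycin were excluded by the authors as failed models, and no mouse without bleomycin was analysed here. Each library came from 1 mouse, and the comparison asks how the level and the isotype mix of antibody transcripts differed between BLM+HBO and BLM.

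Antibodies are made of heavy and light chains. Naive B cells carry IgM and IgD, whose constant regions are encoded by *Ighm* and *Ighd*, and both come from 1 long transcript by alternative splicing. In class switching, the DNA from *Ighm* up to a downstream constant gene is cut out, *Ighm* and *Ighd* included. The cell then expresses IgG, IgE or IgA from *Ighg3*, *Ighg1*, *Ighg2b*, *Ighg2c*, *Ighe* or *Igha* with the same variable region. Plasma cells, the secreting end stage of the B lineage, hold far more immunoglobulin mRNA per cell than B cells. *Igkc* encodes the constant region of the kappa light chain. *Jchain* encodes the joining chain that links IgA dimers and IgM pentamers and lets them bind the polymeric immunoglobulin receptor of mucosal epithelium, and *Mzb1* encodes an endoplasmic reticulum cochaperone of antibody-secreting cells and marginal zone B cells.

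The heavy constant genes of the set lie in a cluster on the minus strand of chromosome 12 (GRCm38), and are given here from upstream to downstream. *Ighm* (ENSMUSG00000076617.9) is at chr12:113418558-113422730, *Ighd* (ENSMUSG00000104213.5) at chr12:113406604-113416324 and *Ighg3* (ENSMUSG00000076615.4) at chr12:113356224-113361232. They are followed by *Ighg1* (ENSMUSG00000076614.7) at chr12:113325240-113330523, *Ighg2b* (ENSMUSG00000076613.4) at chr12:113302965-113307933, *Ighg2c* (ENSMUSG00000076612.8) at chr12:113285325-113288932 and *Igha* (ENSMUSG00000095079.6) at chr12:113254830-113260236. *Igkc* (ENSMUSG00000076609.2) is on the plus strand at chr6:70726435-70726966 and *Jchain* (ENSMUSG00000067149.6) on the minus strand at chr5:88519809-88527891. The count of a gene covers all of its annotated exons, so membrane and secreted forms of a heavy chain were not separated.

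The 4 IgG genes are close copies, and their hinge exons are printed because the hinge, the flexible link that holds the disulfide bonds between the heavy chains, is where the subclasses differ most plainly. The sequences are the hinge exons of the GENCODE vM21 transcripts on GRCm38 (chromosome 12, minus strand), read 5′ to 3′, and capitals mark the cysteine codons in the reading frame.
Ighg3 hinge, chr12:113360529-113360576: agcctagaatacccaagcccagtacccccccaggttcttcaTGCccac
Ighg1 hinge, chr12:113329844-113329882: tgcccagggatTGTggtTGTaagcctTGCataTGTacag
Ighg2b hinge, chr12:113307261-113307326: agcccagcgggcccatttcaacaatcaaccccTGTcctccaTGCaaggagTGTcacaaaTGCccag
Ighg2c hinge, chr12:113288263-113288325: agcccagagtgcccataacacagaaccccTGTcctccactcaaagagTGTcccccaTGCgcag
The exons are 48, 39, 66 and 63 bases long and hold 1, 4, 4 and 3 cysteine codons in this order. Over the whole exon length of the 4 genes, no stretch of 150 bases, the length of a sequenced read, was shared with another gene. Of stretches of 50 bases, 5.49% in *Ighg2c*, 4.15% in *Ighg2b*, 1.58% in *Ighg3* and 0.393% in *Ighg1* were shared with another IgG gene. Reads that fit several of these genes equally well were left out by the counting.

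The ends of the secreted heavy chains are printed because the joining chain binds IgM and IgA there. The last 60 coding bases follow, stop codon included, and capitals mark the codon before the last one, from the same transcripts.
Ighm tail, chr12:113420867-113420926: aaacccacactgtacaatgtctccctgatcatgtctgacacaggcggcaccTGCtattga
Igha tail, chr12:113258768-113258827: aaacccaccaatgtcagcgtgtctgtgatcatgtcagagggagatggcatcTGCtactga
Ighg2c tail, chr12:113287389-113287448: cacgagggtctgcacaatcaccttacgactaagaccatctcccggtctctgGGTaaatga
*Ighm* and *Igha* have a cysteine codon (TGC) at this place, the cysteine that is known to bond with the joining chain. The 4 IgG genes have GGT and *Ighd* has CTT.

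The total count per mouse lay between 18157161 and 26365969, and every pair of replicate libraries differed by more than the sampling noise, so each counted as a replicate. The labels give no batch. Levels are given as CPM, counts scaled by the TMM-normalized library sizes, and levels of different genes are compared as CPM per kb of exon. Of the 17465 genes tested with edgeR's quasi-likelihood test, 6.29% passed the thresholds of the study, which are a fold change above 1.5 and an unadjusted P below 0.05. At an adjusted P below 0.05, 0 passed, while 1861 (10.7%) had an unadjusted P below 0.05. By DESeq2, the tool of the study, 6.72% passed the thresholds and 0.779% passed after adjustment. Heart muscle markers also moved with the groups. Of 12 such genes, 11 were higher in BLM+HBO past the thresholds, and their summed level ranged from 73.5 to 198 CPM in BLM and from 174 to 748 CPM in BLM+HBO, with none at 0. Their part in the differences below was not tested.

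Transcripts of IgA, the kappa chain and the joining chain were lower in 2 of the 3 BLM+HBO mice than in any BLM mouse. Together, the 7 heavy constant genes and *Igkc* took 0.348%, 0.228%, 0.189% and 0.406% of all counted reads in the 4 BLM mice and 0.140%, 0.242% and 0.0915% in the 3 BLM+HBO mice. Of the 10 genes, all of which passed the filter on low counts, 7 had a lower and 3 a higher fitted level in BLM+HBO, where 48.8% of all tested genes were lower, and the median log2 fold change was -0.86, against 0.0071 over all tested genes. The thresholds of the study were passed by 4 of the 10, *Ighg1*, *Igha* and *Igkc* lower and *Ighd* higher, where 2.89% of all tested genes passed as lower and 3.4% as higher. Groups did not overlap for 1 of the 10, *Ighd*, against 8.77% of all tested genes, of which 4.72% were lower and 4.05% higher. DESeq2 passed 3 of the 10, *Ighd*, *Ighg1* and *Igkc*. After adjustment over all tested genes 0 of the 10 passed at 0.05 by edgeR, DESeq2 or limma, with a lowest edgeR adjusted P of 0.423. A lower level in whole lung can mean fewer cells of a type or less RNA per cell, and these cannot be told apart here.

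**Figure D1:**
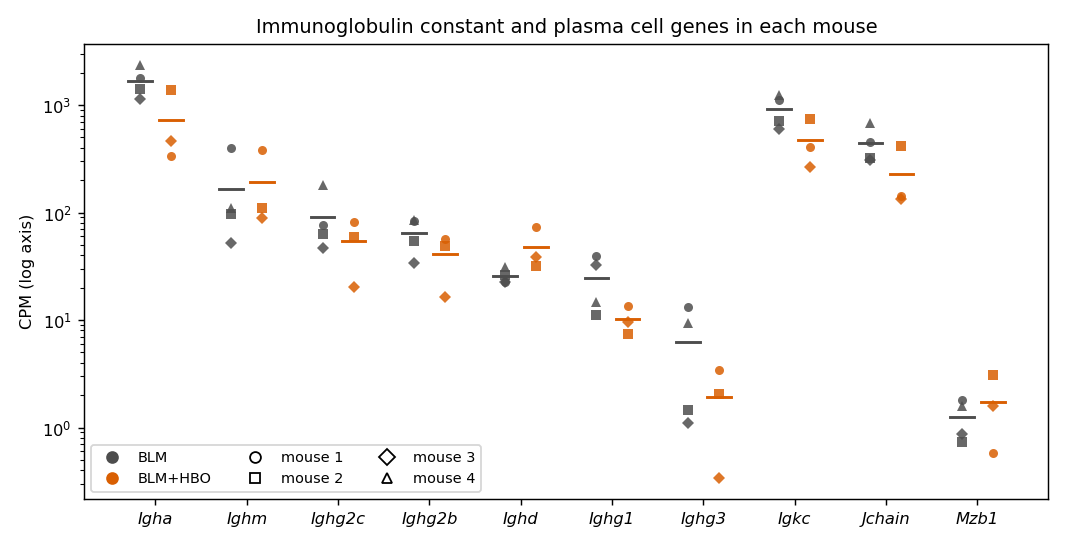
Level of each of the 10 genes in each mouse, as CPM on a log axis, with 1 point per mouse (shape gives the mouse number), BLM in grey, BLM+HBO in orange and group means as horizontal lines. *Ighd* is the gene whose groups do not overlap, with BLM at 22.5 to 31.4 CPM and BLM+HBO at 31.7 to 73.5 CPM, while for *Igha*, *Igkc* and *Jchain* the square of BLM+HBO 2 lies among the BLM mice.

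*Igha*, the IgA heavy chain and the usual isotype of mucosal surfaces, was the highest heavy chain gene in the BLM lungs. Its level was 1788, 1407, 1130.2 and 2378 CPM in BLM 1 to BLM 4 and 333, 1385 and 463 CPM in BLM+HBO 1 to BLM+HBO 3. BLM+HBO 1 and BLM+HBO 3 lay far below the lowest BLM mouse, and BLM+HBO 2 lay within the BLM range. Group means were 1676 ± 540.1 CPM (SD of 4 mice) for BLM and 727 ± 574 CPM (SD of 3 mice) for BLM+HBO. The log2 fold change was -1.20 (standard error 0.46, unadjusted P = 0.0274, adjusted P = 0.438), a level 2.31-fold lower in BLM+HBO. It was -2.08 without BLM+HBO 2 (adjusted P = 0.0272), a fit in which 267 of all 17879 tested genes passed after adjustment. The call was lost without BLM 4 (-0.99), BLM+HBO 1 (-0.86) or BLM+HBO 3 (-0.96). It was also lost by DESeq2, with an unadjusted P of 0.0511. Over all alternatives tried, its adjusted P lay between 0.0259 and 0.802.

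*Igkc*, the kappa constant region shared by most mouse antibodies of every isotype, was the highest of the 10 genes per kb in all 7 mice. It measured 1112, 705, 595 and 1251 CPM in the BLM mice and 411, 749 and 267 CPM in the BLM+HBO mice. The groups overlapped through BLM+HBO 2, as for *Igha*. The log2 fold change was -0.95 (standard error 0.37, unadjusted P = 0.0279, adjusted P = 0.439, between 0.0393 and 0.802 over the alternatives). It no longer passed when BLM 1 (-0.84), BLM 4 (-0.76), BLM+HBO 1 (-0.85) or BLM+HBO 3 (-0.66) was left out, and without BLM+HBO 2 it was -1.44.

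*Jchain* ranked the mice in the same order as *Igkc* but did not pass the thresholds. Its level was 454, 324, 306 and 680.3 CPM in BLM and 142, 413 and 134 CPM in BLM+HBO. Again BLM+HBO 1 and BLM+HBO 3 lay below all BLM mice and BLM+HBO 2 lay among them. The log2 fold change was -0.94 (standard error 0.42, unadjusted P = 0.0523, adjusted P = 0.471, between 0.0417 and 0.802 over the alternatives). It passed without BLM 2 (-1.06), BLM 3 (-1.08) or BLM+HBO 2 (-1.67), with no filter on low counts (-0.95) and with limma (-1.07). The isotypes whose tails hold the cysteine for this chain are IgA and IgM, and *Jchain* stood at a log2 ratio of -2.26 ± 0.195 (SD of 4 mice) to the summed heavy constant level per kb in BLM and -2.45 ± 0.51 (SD of 3 mice) in BLM+HBO. This ratio did not differ beyond the spread (two-sided exact permutation test, P = 0.629, adjusted P = 0.754 over 11 shares and ratios).

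*Mzb1* (ENSMUSG00000024353.5, minus strand at chr18:35647267-35649367 of GRCm38), the other plasma cell gene of the set, was near the detection limit and had the opposite sign. Its counts were 33, 13, 16 and 30 in BLM and 11, 64 and 42 in BLM+HBO, which are 1.82, 0.733, 0.878 and 1.58 CPM and 0.586, 3.06 and 1.57 CPM. The BLM+HBO mice held both the lowest and the highest value. The log2 fold change was 0.48 (standard error 0.54, unadjusted P = 0.402) and became -0.19 without BLM+HBO 2. In the annotation, 57.2% of the 1215 exon bases of *Mzb1* are also exon of the gene SPATA24 on the same strand, which had a count of 0 in all 7 mice. Default counting leaves out reads that fall on both genes, so the *Mzb1* values cover part of its transcripts at most.

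*Ighg1*, an IgG subclass that cytokines of type 2 immunity favour, was the most stable call among the lower genes. It measured 39.5, 11.2, 32.7 and 14.7 CPM in BLM and 13.6, 7.42 and 9.64 CPM in BLM+HBO. BLM 1 and BLM 3 stood well above the other mice, BLM 2 and BLM 4 lay close to the BLM+HBO mice, and BLM+HBO 1 was within the BLM range. The log2 fold change was -1.27 (standard error 0.43, unadjusted P = 0.0153, adjusted P = 0.423, between 0.0143 and 0.802 over the alternatives). It passed the thresholds of the study in all 16 fits that were run, with values from -1.52 to -0.94.

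The other IgG genes had negative log2 fold changes that did not pass. *Ighg2c*, the subclass that C57BL/6 mice carry in place of IgG2a and that interferon gamma favours, measured 77.3, 63.7, 46.7 and 179 CPM in BLM and 81.9, 59.3 and 20.3 CPM in BLM+HBO, with a log2 fold change of -0.77 (standard error 0.52, unadjusted P = 0.169). *Ighg2b* measured 83.6, 54.8, 34.3 and 86.0 CPM and 57.3, 48.9 and 16.3 CPM, with a log2 fold change of -0.67 (standard error 0.42, unadjusted P = 0.147). *Ighg3* measured 13.1, 1.47, 1.10 and 9.48 CPM and 3.41, 2.06 and 0.337 CPM, with a log2 fold change of -1.72 (standard error 0.94, unadjusted P = 0.0989). BLM+HBO 3 was the lowest mouse for all of these genes, and the groups overlapped for each. *Ighg3* varied 11.9-fold among the BLM mice, so its difference, the largest of the 10 in size, was also the least precise. With 1 mouse left out, the lowest values came without BLM+HBO 1 (*Ighg2c* -1.21, *Ighg2b* -0.99 and *Ighg3* -2.42). The values nearest 0 were -0.22 for *Ighg2c* (BLM 4 left out), -0.29 for *Ighg2b* (BLM+HBO 3 left out) and -1.08 for *Ighg3* (BLM 1 left out). *Ighg3* passed without BLM 3 (-2.08), *Ighg2b* with the replicate block (-0.59), and all of these genes passed with no filter on low counts.

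The genes of unswitched antibody did not follow the IgA and IgG genes. *Ighm* measured 400.4, 96.3, 52.2 and 111 CPM in BLM and 379, 109 and 89.8 CPM in BLM+HBO. In each group 1 mouse, BLM 1 and BLM+HBO 1, stood far above the others, and the log2 fold change of 0.22 (standard error 0.69, unadjusted P = 0.754) was well within the spread. Its sign turned without BLM 3 (-0.07) or BLM+HBO 1 (-0.73). *Ighd* measured 22.6, 26.1, 22.5 and 31.4 CPM in BLM and 73.5, 31.7 and 38.5 CPM in BLM+HBO. Every BLM+HBO mouse was above every BLM mouse, though BLM+HBO 2 lay just above BLM 4.

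For *Ighd* the log2 fold change was 0.90 (standard error 0.26, unadjusted P = 0.00701, adjusted P = 0.423, between 0.0107 and 0.802 over the alternatives), a level 1.86-fold higher in BLM+HBO. It passed in 15 of 16 fits. The exception was the fit without BLM+HBO 1, where it was 0.45 (unadjusted P = 0.026) and the fold change fell under 1.5. With DESeq2 the adjusted P was 0.0904 for *Ighd* and 0.1 for *Ighg1*.

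**Figure D2:**
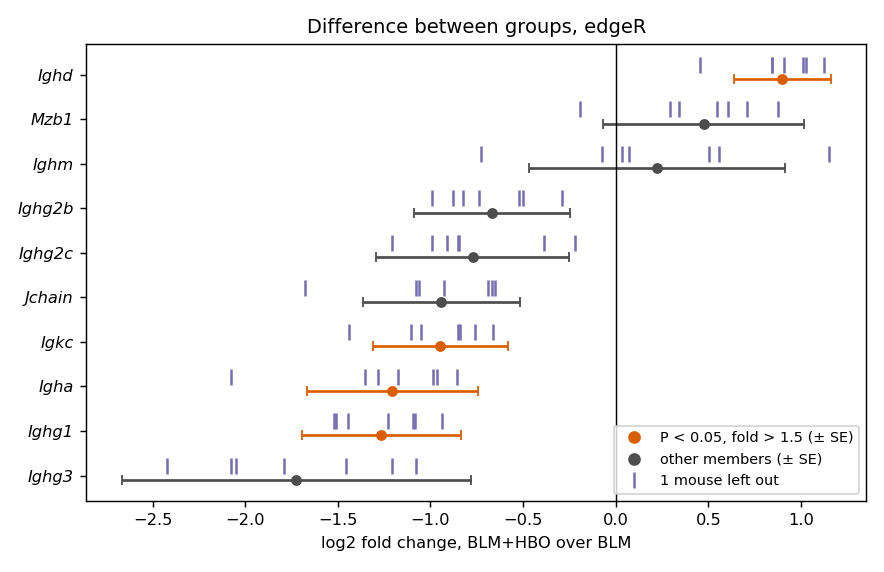
Log2 fold change of each gene in BLM+HBO over BLM by edgeR, with bars for 1 standard error and purple ticks for the fits with 1 mouse left out. Orange marks *Ighd*, *Igkc*, *Igha* and *Ighg1*, which passed the thresholds of the study, and ticks fall on both sides of 0 for *Mzb1* and *Ighm*.

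In levels per kb the order of the genes was alike in most mice. *Igkc* came first in every mouse, at 1118 to 2351 CPM per kb in BLM and 501 to 1408 CPM per kb in BLM+HBO. *Igha* came second in 6 of 7 mice, at 424 to 891 CPM per kb in BLM and 125 to 519 CPM per kb in BLM+HBO. *Jchain* had 122 to 270.3 and 53.4 to 164 CPM per kb, *Ighm* 27.7 to 212 and 47.6 to 201 CPM per kb, and *Ighg2c* 35.2 to 135 and 15.3 to 61.7 CPM per kb, and these neighbours overlapped. *Ighg2b*, *Ighd*, *Ighg1*, *Ighg3* and *Mzb1* were at 38.7 CPM per kb or less in every mouse. In BLM+HBO 1, *Ighm* was above *Igha*, and in BLM 1 and BLM+HBO 1 it was above *Jchain*.

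Isotype shares were computed within each mouse, as a gene's count per kb of exon over the sum of the 7 heavy constant genes. The shares of a mouse are therefore tied together. *Igha* made up most of the sum in all BLM mice, so a lower *Igha* level by itself raises the shares of the other genes. IgA was the main isotype in all BLM mice, with an *Igha* share of 66.7%, 79.2%, 80.8% and 78.0%, and in BLM+HBO it was 27.5%, 78.6% and 65.1%. BLM+HBO 2 had the mix of the BLM mice, BLM+HBO 3 lay just below the lowest of them, and BLM+HBO 1 stood apart. The mean was 76.2 ± 6.42% (SD of 4 mice) in BLM and 57.1 ± 26.5% (SD of 3 mice) in BLM+HBO, a difference of -19.1 percentage points that was within the spread (two-sided exact permutation test, P = 0.171, adjusted P = 0.377). It was -4.35 percentage points without BLM+HBO 1 and -29.9 percentage points without BLM+HBO 2.

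The *Ighm* share was 21.1%, 7.67%, 5.28% and 5.14% in BLM and 44.2%, 8.76% and 17.9% in BLM+HBO, and the groups overlapped through BLM 1 (two-sided exact permutation test, P = 0.229, adjusted P = 0.419). The mean difference of 13.8 percentage points was 3.51 percentage points without BLM+HBO 1 and 21.2 percentage points without BLM+HBO 2. In BLM+HBO 1, IgM was thus the leading isotype per kb of all exons. This order depended on the length used, since per kb of the secreted transcript the shares of that mouse were 38.4% for *Igha* and 32.2% for *Ighm*. All class-switched genes together held 77.7%, 90.3%, 92.5% and 93.4% in BLM and 47.3%, 88.7% and 74.5% in BLM+HBO. The mean difference was -18.3 percentage points (two-sided exact permutation test, P = 0.114, adjusted P = 0.377), and BLM+HBO 1 and BLM+HBO 3 lay below all BLM mice. It was -6.84 percentage points without BLM+HBO 1 and -27.6 percentage points without BLM+HBO 2.

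Of the 11 shares and ratios, the *Ighd* share was the one whose groups did not overlap. It was 1.19%, 2.06%, 2.26% and 1.45% in BLM and 8.52%, 2.53% and 7.61% in BLM+HBO. The lowest BLM+HBO mouse was again BLM+HBO 2, close above BLM 3. The summed heavy constant genes were lowest in BLM+HBO 1 and BLM+HBO 3 (941 and 638 CPM), so this share reflects the *Igha* level as well as *Ighd*. The means were 1.74 ± 0.506% (SD of 4 mice) and 6.22 ± 3.23% (SD of 3 mice), and a two-sided exact permutation test gave P = 0.0286, the smallest that 4 mice against 3 allow, with an adjusted P of 0.314. The order also held per kb of the secreted transcript and with raw reads.

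Within IgG the mix varied between mice, and the groups overlapped for each gene. *Ighg2c* was the largest IgG gene per kb in every mouse, with 53.0% to 76.5% of IgG. Per kb of the secreted transcript *Ighg2b* exceeded it in BLM 1, with 38.8% against 36.0%. The 4 IgG genes had differences in share of all heavy chain reads between -0.274 percentage points for *Ighg1* and 0.814 percentage points for *Ighg2c* (two-sided exact permutation tests, P = 0.543 to 0.8, adjusted P = 0.754 to 0.8). The *Ighg1* share, at 0.496% to 2.41% in BLM, overlapped the 0.433% to 1.39% of BLM+HBO. *Igha*, most of the sum in BLM, had a log2 fold change of -1.20 beside -1.27 for *Ighg1*. The share therefore cannot tell whether the *Ighg1* level was lower.

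**Figure D3:**
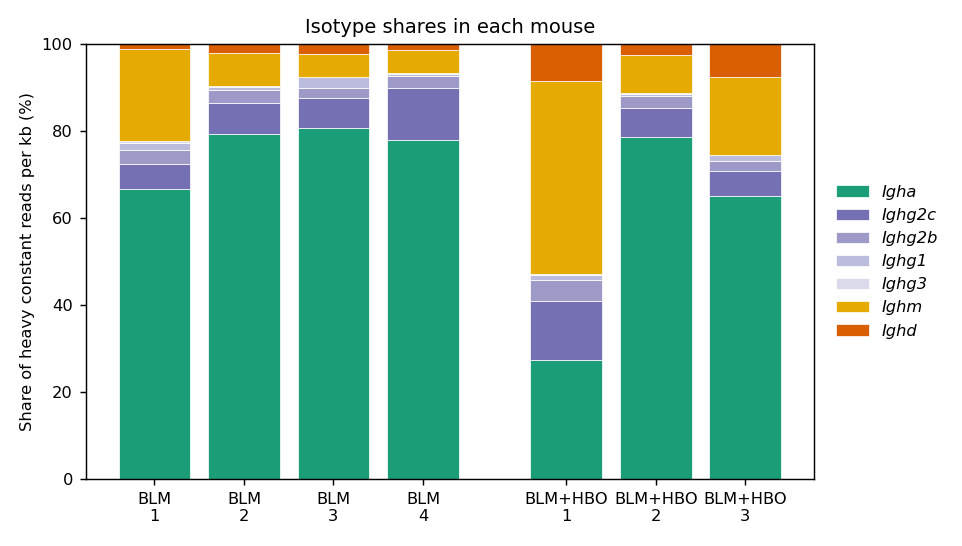
Share of each heavy constant gene in the summed heavy constant reads per kb, in percent, with 1 stacked bar per mouse. *Igha* (green) holds 66.7% to 80.8% in the BLM mice and 27.5%, 78.6% and 65.1% in the BLM+HBO mice, and *Ighd* (red-orange, at the top) is wider in every BLM+HBO bar than in any BLM bar.

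The ratio of kappa to heavy chain reads varied little between mice. The log2 ratio of *Igkc* to the summed heavy constant genes per kb was 1.05 ± 0.0413 (SD of 4 mice) in BLM and 0.923 ± 0.164 (SD of 3 mice) for BLM+HBO (exact two-sided permutation test, P = 0.171, adjusted P = 0.377). With the lengths of the secreted transcripts the difference was 0.0020 in place of -0.12. Variable segments gave nearly the same order of mice as the constant genes, with BLM 1 in place of BLM 4 at the top, and BLM+HBO 2 was again with the BLM mice. The 185 variable gene segments of the heavy chain locus summed to 596, 384, 242 and 567 CPM in BLM and 158, 439 and 134 CPM in BLM+HBO. The 160 kappa variable segments summed to 796, 475, 324 and 716 CPM and to 262, 494 and 192 CPM.

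Of 9 listed lambda, epsilon and surrogate light chain genes, 5 passed the filter on low counts, and 1 was higher and 1 lower past the thresholds. Over all tested genes, 3.4% were higher and 2.89% lower. *Iglc2* was lower (log2 fold change -0.68, unadjusted P = 0.0441) and *Iglc3* was higher (1.57, unadjusted P = 0.0302), with 28.2 CPM in BLM+HBO 2 against 2.71 to 9.10 CPM in the other 6 mice. These calls were unstable. There was no call without BLM 4 or with the replicate block, none higher without BLM 2, and none lower with upper-quartile factors or without BLM 1 or BLM+HBO 3. *Iglc1* was at 51.1 ± 38.5 CPM (SD of 4 mice) and 22.8 ± 12.1 CPM (SD of 3 mice), with a log2 fold change of -1.17 that did not pass (unadjusted P = 0.054). *Ighe*, the IgE constant gene, had counts of 0 to 6 and was not tested.

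B cell markers went the other way from the IgA and IgG genes. For 7 of 16 such markers the groups did not overlap, all higher in BLM+HBO, against 4.05% of all tested genes. The median log2 fold change was 0.91. Past the thresholds, 12 of the 16 were higher and 0 lower, where 3.4% of all tested genes were higher. The list was chosen with earlier results of these data known, and its genes mark the same cell type, so they are not independent. *Pax5* (log2 fold change 1.23, unadjusted P = 0.0016), the transcription factor that holds B cell identity, was among them. So were *Spib* (0.83), *Cr2* (1.26), *Cd79a* (0.90), which encodes a signalling chain of the receptor, and *Ms4a1* (1.05), which encodes CD20. The summed level was 138, 155, 132 and 218.3 CPM in BLM and 416, 218.1 and 251 CPM in BLM+HBO, so BLM 4 and BLM+HBO 2 were level. Single mice carried much of the count, which was 4 without BLM+HBO 1 and between 9 and 15 without any other mouse. Higher calls over all tested genes moved too. They were 594 of 17465 with all mice, 345 of 17831 without BLM+HBO 1 and 946 of 17879 without BLM+HBO 2.

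Levels were also set against these markers within each mouse. Per 100 CPM of the B cell markers, *Ighd* stood at 16.4, 16.9, 17.1 and 14.4 CPM in BLM and 17.7, 14.5 and 15.4 CPM in BLM+HBO. That is a range of 1.23-fold over the 7 mice. *Igha* stood at 1297, 910, 859 and 1089 CPM per 100 CPM of the markers in BLM and at 80.1, 635 and 185 CPM in BLM+HBO, and *Jchain* at 329, 210, 232 and 312 CPM and at 34.2, 189 and 53.6 CPM. On this scale BLM+HBO 2, too, lay below all BLM mice. The groups did not overlap for 6 of the 10 genes, *Igha*, *Igkc*, *Jchain*, *Ighg1*, *Ighg2b* and *Ighg2c*, all lower, where 33.8% of the 17449 genes outside the list were lower without overlap. The scale was chosen after the values were seen, it divides by genes that were themselves higher in BLM+HBO, and it is given without a test.

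**Figure D4:**
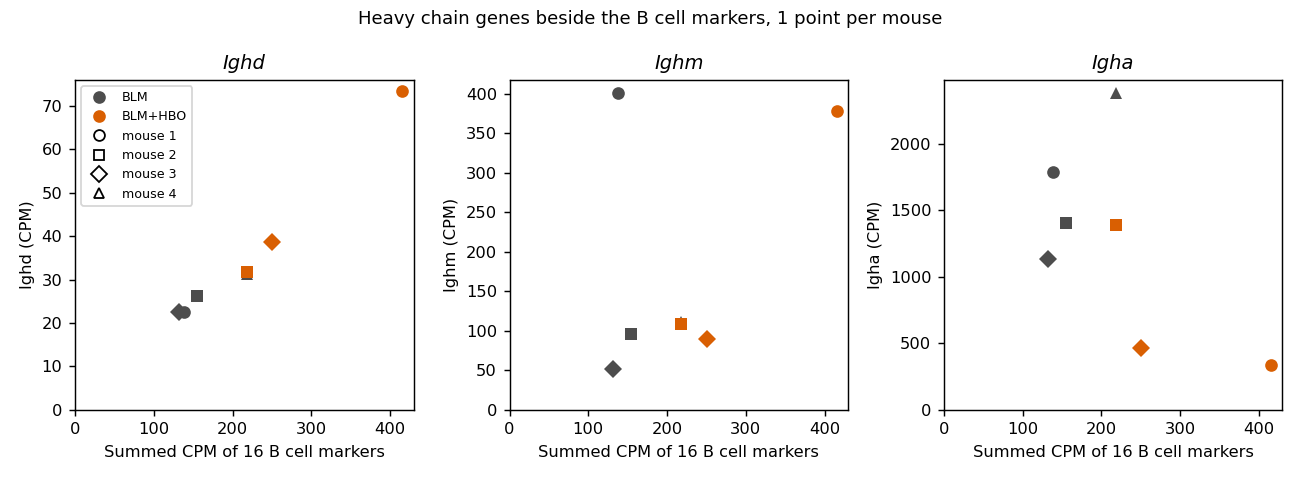
CPM of *Ighd*, *Ighm* and *Igha* against the summed CPM of 16 B cell markers, with 1 point per mouse, both axes linear from 0 (BLM in grey, BLM+HBO in orange, and the points of BLM 4 and BLM+HBO 2 nearly coincide in the first and middle panels). *Ighd* lies along a line through the 7 mice, from 22.5 CPM at 132 CPM of markers to 73.5 CPM at 416 CPM, while *Igha* is lowest in BLM+HBO 1 and BLM+HBO 3, which have the most marker reads.

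Other plasma cell genes moved little. Of 18 such genes 17 were tested, none passed the thresholds in either direction, and the median log2 fold change was -0.16. Over all tested genes, 6.29% passed. Their summed level was 1508 to 1574 CPM in BLM and 1383 to 1417 CPM in BLM+HBO, without overlap, and *Sdc1*, *Xbp1* and *Txndc5* gave most of it. *Xbp1*, the transcription factor of the secretory programme, was at 287 ± 10.4 CPM (SD of 4 mice) in BLM and 231 ± 40.4 CPM (SD of 3 mice) in BLM+HBO, with a log2 fold change of -0.31 (unadjusted P = 0.0389) that is under a fold change of 1.5. *Edem1* (-0.33, unadjusted P = 0.021) and *Ell2* (-0.37, unadjusted P = 0.0405), which serve protein quality control and the making of secreted heavy chain mRNA, were in the same position, as was *Slamf7* on the higher side (0.45, unadjusted P = 0.0463). *Sdc1* (-0.19), which encodes CD138, *Prdm1* (0.0095), *Irf4* (0.10) and *Pou2af1* (0.26) had unadjusted P between 0.136 and 0.971. Several of these genes are also expressed by epithelial, myeloid or T cells, and *Tnfrsf17*, which encodes the plasma cell receptor BCMA, had counts of 4 to 22 and was not tested.

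Of 16 listed genes of class switching and the germinal centre, 12 were tested, 0 passed in the main fit, and the median log2 fold change was 0.05. Over all tested genes, 6.29% passed in that fit. With a mouse left out, 2 were higher without BLM 4 and 1 without BLM+HBO 3, and limma, upper-quartile factors, the replicate block and the lack of a filter each gave 1. *Icosl*, which encodes a costimulatory ligand, came closest with 0.58 (unadjusted P = 0.00315) just under the fold limit, and *Tgfb1*, whose product directs switching to IgA, was at 161 ± 7.39 CPM (SD of 4 mice) and 131 ± 13.8 CPM (SD of 3 mice) with a log2 fold change of -0.30 (unadjusted P = 0.0185).

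Among the receptors that antibodies bind, *Fcgr1*, *Fcgr2b* and *Fcgr3* were lower in BLM+HBO and *Pigr* was higher. Of 10 listed genes 9 were tested, with 1 higher and 3 lower past the thresholds and a median log2 fold change of -0.36. Over all tested genes, 3.4% passed as higher and 2.89% as lower. Groups did not overlap for 1 higher and 4 lower of the 9, against 4.05% and 4.72% of all tested genes. *Pigr*, the polymeric immunoglobulin receptor that carries IgA and IgM across epithelium, measured 16.1, 21.4, 29.4 and 33.0 CPM in BLM and 39.6, 38.0 and 54.9 CPM in BLM+HBO, for a difference on the log2 scale of 0.82 (standard error 0.24, unadjusted P = 0.00644, adjusted P = 0.423). Every BLM+HBO mouse was above every BLM mouse for *Pigr*, opposite to *Igha* and *Jchain*, whose products it carries. The lower ones encode IgG receptors, *Fcgr3* (-0.77, unadjusted P = 0.00403), *Fcgr2b* (-0.77, unadjusted P = 0.00872) and *Fcgr1* (-0.82, unadjusted P = 0.0122). Their adjusted P was 0.423 each. The number of lower genes was 1 without BLM+HBO 3 and 3 or 4 without any other mouse. Lower calls over all tested genes were 504 of 17465 with all mice and 369 of 17813 without BLM+HBO 3. The IgG-binding genes *Fcgr4* (-0.57), *Fcgrt* (-0.21) and *Trim21* (0.28), named here after their values were seen, did not pass. Of these, *Fcgr4* (unadjusted P = 0.0195) was just under the fold limit, and its BLM+HBO mice all lay below the BLM mice. The receptors of *Fcgr1*, *Fcgr3* and *Fcgr4* are found mainly on myeloid cells.

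Signals that recruit and sustain the lineage were mixed. Of 17 listed genes 15 were tested, with 2 higher and 1 lower past the thresholds. Over all tested genes, 3.4% were higher and 2.89% lower with all mice. Without BLM+HBO 2, the fit with the most calls over all genes among those with a mouse left out, 946 of 17879 were higher and 968 lower. With a mouse left out, 1 to 4 were higher (1 without BLM 1, BLM 3 or BLM+HBO 1, and 4 without BLM+HBO 2 or BLM+HBO 3) and 0 to 3 lower (3 without BLM+HBO 2, 2 without BLM 3, and 0 when BLM 1, BLM+HBO 1 or BLM+HBO 3 was left out). *Cxcr5*, the receptor that brings B cells to follicles, was higher (log2 fold change 1.12, unadjusted P = 0.00502), as was *Cxcr3* (0.84, unadjusted P = 0.042), and *Cxcl13*, which encodes the ligand of CXCR5, was lower (-0.75, unadjusted P = 0.0407). *Cxcl12*, which retains plasma cells in their niches, was at 647, 558, 426 and 523 CPM in BLM and 201, 660.4 and 264 CPM in BLM+HBO. It did not pass (-0.52, unadjusted P = 0.177). BLM+HBO 2 was split from its group as for *Igha*, and over all genes, too, that library was nearer to the BLM mice. The survival factors *Tnfsf13b* (BAFF, -0.0034) and *Tnfsf13* (APRIL, 0.46) did not pass either.

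**Figure D5:**
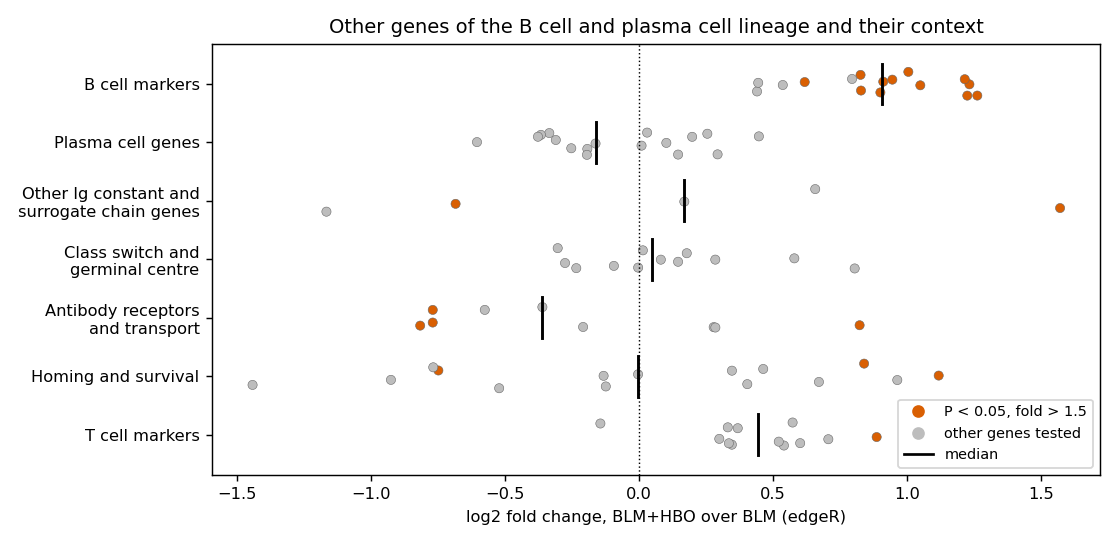
Log2 fold change in BLM+HBO over BLM by edgeR for the tested genes of 7 lists of B cell, plasma cell and related genes, with 1 point per gene, orange past the thresholds of the study and a black line at each list's median. The B cell markers lie at a median of 0.91 with 12 of 16 past the thresholds, and the plasma cell genes at -0.16 with none.

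Of the other cell type lists, 1 of 12 T cell markers was higher past the thresholds (*Trbc2*, log2 fold change 0.89) with a median of 0.44. Over all tested genes, 3.4% were higher and 2.89% lower. The T cell count was 6 without BLM+HBO 3 (median 0.71), 3 without BLM 4 or BLM+HBO 2, and 0 without BLM+HBO 1 (median 0.11). Higher calls over all tested genes moved as well. They were 512 of 17813 without BLM+HBO 3, 946 of 17879 without BLM+HBO 2 and 345 of 17831 without BLM+HBO 1. They were 403 of 17249, 443 of 17302, 785 of 17227 and 684 of 17233 without BLM 1, BLM 2, BLM 3 and BLM 4. None of 7 erythroid markers passed in the main fit, against 3 of 6 higher without BLM 3, 2 of 7 without BLM+HBO 3 and 1 of 7 without BLM 4. With all mice, limma, the lack of a filter and the replicate block each gave 1 of 7 higher. Of 10 lung cell markers 1 was higher (*Scgb1a1*, 0.73) and 1 lower (*Marco*, -2.06), and the number higher was 2 without BLM+HBO 2, 1 without BLM 2 or BLM 3, and 0 when any other mouse was left out. The defining genes of alveolar cells were high in all 7 libraries, with *Sftpc* at 4549 CPM or more and *Ager* at 1545 CPM or more, as the label of lung tissue has it.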

How the data were processed

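The deposited table holds raw counts per gene, not normalized. The authors extracted RNA with Trizol, made NEBNext Ultra libraries, sequenced paired reads of 150 bases, trimmed them, mapped them to GRCm38 with HISAT2 2.2.0 and counted them with featureCounts at default settings (2.2.0 in the processing notes, another version in the supplementary methods), which ignore strand and leave out reads with several hits or overlapping several genes. The annotation release was not given in the sources used here. Symbols, exons and sequences came from GENCODE vM21, which named 55141 of 55401 genes, and the table's exon length equalled that of vM21 for all 10 genes.

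Low counts were removed with filterByExpr at a minimum count of 10 and a total of 15, and the rest were scaled by TMM (factors 0.964 to 1.036) and tested with edgeR 4.0.16 under R 4.3.3, over 17465 genes with Benjamini-Hochberg adjustment. Each mouse was 1 replicate, and the edgeR P sets the difference between groups against the spread between mice. Shares and ratios were compared by two-sided exact permutation over 35 labelings, adjusted over 11. Scripts were tested on simulated data. Alternatives were DESeq2 1.42.0 (the tool of the study, on the same filtered genes), limma-trend 3.58.1, RLE and upper-quartile factors, other filters, robust empirical Bayes, a replicate block, stricter thresholds, the secreted transcript length and leaving out each mouse.

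The 10 genes and the lists were chosen with earlier results of these data known. Named from each list were the up to 4 genes of lowest P and a fixed set of defining genes, some of which are not reported here. All sample columns of the table were used.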

Additional observations from a re-analysis of the deposited data

Results flagged for a closer look

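BLM 1 had an *Ighm* share of heavy constant reads per kb of 21.1%, far from the 5.14% to 7.67% of BLM 2, BLM 3 and BLM 4. The distance to its closest neighbour made up 0.842 of the spread from lowest to highest, which exceeds Dixon's limit at the 95% level. This rule was applied to 21 sets of BLM values and marked this 1, and about 1 in 20 would be marked by chance. It was not applied to BLM+HBO, which had 3 mice.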

How the results depend on the processing

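The number of the 10 genes past the thresholds of the study was 4, and it was 8 with no filter on low counts, 1 at P below 0.01, 2 at a fold change above 2, and 1 to 6 with a mouse left out (2 without BLM 4, 1 without BLM+HBO 1, 2 without BLM+HBO 3, 6 without BLM 3). After adjustment 0 passed, against 4 with no filter (*Ighd*, *Ighg1*, *Igha* and *Igkc*) and 0 to 2 with a mouse left out (*Igha* and *Jchain* without BLM+HBO 2). With no filter 1940 of 32896 genes passed in place of 1098 of 17465, and 387 passed after adjustment in place of 0. Leaving out BLM+HBO 2 likewise raised the calls over all genes, to 1914 of 17879, with 267 after adjustment. With a mouse left out, the sign turned for *Ighm* (-0.73 to 1.15, negative without BLM 3 at -0.07 or BLM+HBO 1), *Mzb1* (-0.19 to 0.88, negative without BLM+HBO 2), the *Jchain* ratio (-0.404 to 0.0943, positive without BLM+HBO 1) and the shares of *Ighg1* (-0.531 to 0.107, positive without BLM 3 or, at 0.00654, BLM+HBO 2), *Ighg2b* (-0.335 to 0.881) and *Ighg2c* (-1.63 to 2.30, both negative without BLM+HBO 1). The *Igkc* ratio turned to 0.0020 with the secreted transcript length. None of these passed a threshold, and the cause was not tested. The difference in the *Ighd* share was 3.33 to 6.32 percentage points with a mouse left out, where the smallest P possible is 0.1 without a BLM mouse and 0.0667 without a BLM+HBO mouse. Same-numbered mice had correlations of -0.008, -0.066 and 0.161 in their deviations from the group means, 1 of 3 BLM+HBO mice correlated best with its own number, and the numbers were not taken to pair mice. With the number as a replicate block 5 of the 10 genes passed, the fifth being *Ighg2b* (-0.59), and 0 after adjustment, and 1258 of all genes passed. Counts of 9 to 64 (*Mzb1*, and *Ighg3* in some mice) limit what depth can show.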

Other observations

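The genes whose pattern over the 7 mice was nearest to that of the summed heavy constant genes and *Igkc*, among tested genes outside the lists and the immunoglobulin loci, were *Stra6*, *Tenm3*, *Ackr1*, *Selp* and *Osm*. The measure was the mean absolute difference of log2 CPM centred on its mean over the mice. It was 0.0713 for *Stra6*, 0.166 for *Tenm3*, 0.185 for *Ackr1*, 0.186 for *Selp* and 0.196 for *Osm*, against 0.195 for *Jchain*. *Igkc*, at 0.0294, is itself part of the sum, so its distance is no independent yardstick. *Stra6* was near the detection limit, at 0.300 to 1.71 CPM. *Stra6* encodes a retinol transporter, *Ackr1* a chemokine-binding receptor of venules and red cells, *Selp* P-selectin and *Osm* oncostatin M. Of the 50 nearest genes, 2 were immunoglobulin gene segments other than the 10 genes, of which 150 were tested. *Ighd*, *Ighm* and *Ighg3* were among the farthest, at places 16117, 16672 and 16729 of 17465. The measure also grows with the size of the differences between mice. *Ighg3* spanned 0.337 to 13.1 CPM, so its place does not by itself mean another order of mice. These distances describe 7 libraries and carry no test.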
